A study of Homo sapiens with 7 samples.

Results

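The 7 genes described here are a selection of those of the paraspeckle, a nuclear body, together with MALAT1, whose RNA belongs to the splicing speckles. They are the long noncoding RNA (lncRNA) NEAT1, its chromosomal neighbour MALAT1, the genes NONO, SFPQ and PSPC1 of the Drosophila behaviour/human splicing (DBHS) protein family, and TARDBP and RBM14, which encode RNA-binding proteins of the body. They were taken by gene symbol from a list made with earlier results of these data known, and PASs (polyadenylation sites) on the gene's own strand were used. All 7 genes were listed in each of the 3 tables of counts, among 16045 genes in all, with 34 PASs in the table of batch 1, 29 in that of the double knockdown (KD) and 24 in that of batch 2.

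Paraspeckles assemble on the long isoform of NEAT1. Its short isoform ends at a PAS near the start of the gene and carries a poly(A) tail, while the long isoform reads through that PAS and, like mature MALAT1, ends in a triple helix formed after cleavage by RNase P. NONO and SFPQ bind the long isoform and are needed for the body, PSPC1 joins it, and the cleavage factor I proteins CPSF6 and NUDT21 favour the short isoform and HNRNPK the long one. A method that captures poly(A) tails therefore reads the tailed 3′ ends of these RNAs and not the triple helix ends.

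The study asked how the nuclear poly(A) polymerases set gene expression and PAS choice, by 3′READS, in which each read marks the 3′ end of 1 polyadenylated RNA. HEK293, an immortalized line from human embryonic kidney, received a control siRNA (siCtrl) or siRNAs to the non-canonical polymerase Star-PAP (siStarPAP), the canonical polymerases PAPα (siPAPa) and PAPγ (siPAPg), or both of these (siPAPag). Batch 1 held 1 library each of siCtrl, siStarPAP, siPAPa and siPAPg, the siPAPag library was tabulated beside the same siCtrl and its batch was not given, and batch 2 held siCtrl and siStarPAP made by the 3′READS+ protocol. The depth of the tables, as PASS reads (reads with untemplated Ts that support a PAS) on the gene's strand, lay between 2347192 and 16191098 per library.

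All comparisons were therefore between single libraries, except that siStarPAP and siCtrl had 2 libraries each across the batches. Levels are given as RPM, the reads scaled to the library's PASS read total, with an exact Poisson 95% interval, which covers counting error only because the reads carry no molecular identifiers. Since each tailed RNA molecule is counted at its 3′ end, RPM of tailed ends can be compared between genes without a correction for length. For NEAT1 and MALAT1 it leaves out the RNAs that end in a triple helix. A gene was read as changed when the log2 ratio of RPM was past 2-fold with more than 50 reads in the pair. With TUT1, which encodes Star-PAP, the reads fell from 83 to 2 in siStarPAP of batch 1, and in batch 2 they were 6 and 4, too few to check the KD. PAPOLA (PAPα) fell from 71 to 12 reads in siPAPa and from 78 to 8 in siPAPag. PAPOLA was also past 2-fold down in siStarPAP of batch 1, with 44 reads and a ratio of 0.428 (0.287 to 0.632). In batch 2 it had 45 reads in siCtrl and 34 in siStarPAP, a ratio of 0.898 (0.558 to 1.43). PAPOLG (PAPγ) had 5 reads in siCtrl and 15 in the library labelled siPAPg, a ratio of 2.32 (0.800 to 8.15), so no fall was seen there. It had 6 reads in siPAPag, 28 in siStarPAP of batch 1 and 36 in siPAPa. The 5 reads of siCtrl are too few to test the KD of PAPγ. The study checked the KDs by Western blot, which is not analysed here. The HEK293 genes VIM and LIN28B were read in all libraries, PAX2 had 0 to 14 reads and was at 0 in siStarPAP of batch 1, NEFM had 1 to 280 reads, and of the markers of other cell types PTPRC and ALB had no PAS listed while CD34 and COL1A1 had at most 4 and 12 reads. Fewer cells of a kind and less RNA per cell cannot be told apart in bulk RNA.

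The PASs on which the results turn are shown first, as the last 30 bases of each 3′ end in hg19 (GRCh37), written 5′ to 3′ on the strand of the gene, with the polyadenylation signal in capitals. The signals searched in the 40 bases upstream of each PAS, on the strand of the gene only, were AATAAA, then ATTAAA, then 10 weaker variants (TATAAA or AGTAAA or AAGAAA or AATATA or AATACA or CATAAA or GATAAA or AATGAA or ACTAAA or AATAGA). The first in this order found anywhere in the 40 bases was taken, even where a later one lay nearer the PAS. NEAT1 lies at chromosome 11, 65190245 to 65213011, and its main PAS, one 2248 bases upstream and one inside the body of the long isoform are shown because they carry the isoform values below.
NEAT1 main PAS, chr11:65193968-65193997, plus strand: agcacaAATAAAgtttgagttctaaactca
NEAT1 upstream PAS, chr11:65191720-65191749, plus strand: gctttgAATAAAtgcttgttccagagccca
NEAT1 PAS in the long isoform, chr11:65197219-65197248, plus strand: agtaCATAAAtattaatccatactttctta
MALAT1 (chromosome 11, 65265111 to 65275544) is overlapped by its antisense gene TALAM1, and its most-read PAS lies 2839 bases upstream of the other PAS shown.
MALAT1 internal PAS, chr11:65271072-65271101, plus strand: aatAATAAActatttttattagagaatgta
MALAT1 distal PAS, chr11:65273911-65273940, plus strand: tttgtgtAATAAAaatggagaagctctaaa
The 3′UTR PASs of SFPQ (chromosome 1, 35641979 to 35659047, minus strand) are shown because at least 1 of them changed its share in each of the 5 comparisons. The upstream PAS lay 368 bases before the main one and the downstream PAS 152 bases after it.
SFPQ upstream PAS, chr1:35649721-35649750, minus strand: tgcttcaAATAAAtagaaaaatagttataa
SFPQ main PAS, chr1:35649353-35649382, minus strand: gtttgATTAAAtggatcttttatggcccta
SFPQ downstream PAS, chr1:35649201-35649230, minus strand: tacatttgaATTAAAgatgttaaacatgaa
The pair of NONO (chromosome X, 70474664 to 70521372), 899 bases apart in its 3′UTR, both used ATTAAA at the same distance from the cleavage site.
NONO proximal PAS, chrX:70520090-70520119, plus strand: tggtATTAAAcaagtcaattctgtgtggta
NONO distal PAS, chrX:70520989-70521018, plus strand: acctATTAAAatacattttaagccttttaa
For TARDBP (chromosome 1, 11072401 to 11090585) an intronic PAS and the most-read PAS of the 3′UTR are shown, which differ in signal.
TARDBP intronic PAS, chr1:11082119-11082148, plus strand: ctactttaAATATAtgaatcagtggtttaa
TARDBP 3′UTR PAS, chr1:11084071-11084100, plus strand: gaaattcttaAATAAAactgatttaaataa
Of the 32 member PASs that the table of batch 1 placed in 3′-most exons, 16 had AATAAA (50%) and 5 had ATTAAA (15.6%), beside 46.3% and 15.8% of all 37666 such PASs. The AUA trimer, written ATA in the genome, stood at least once between 100 and 41 bases upstream in 22 of the 32 (68.8%) and in 59.5% of all.

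NEAT1 had the lowest level in siStarPAP of batch 1 and the highest in siCtrl of batch 2. Its reads numbered 330 in siCtrl of batch 1 (28.9 RPM, 25.8 to 32.2) and 115 in siStarPAP (6.95 RPM, 5.74 to 8.34). In batch 2 they numbered 1006 in siCtrl (199 RPM, 187 to 212) and 294 in siStarPAP (69.2 RPM, 61.5 to 77.6). Within each batch the KD library stood below its siCtrl with no overlap of intervals, but siStarPAP of batch 2 stood above every library of batch 1. siPAPa had 16.1 RPM (405 reads), the library labelled siPAPg 18.9 RPM (280 reads) and siPAPag 24.6 RPM (463 reads), so all of these were between siStarPAP and siCtrl of the same batch or table.

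The ratio of NEAT1 in siStarPAP to siCtrl was 0.241 (95% interval 0.193 to 0.298) in batch 1 and 0.347 (0.304 to 0.396) in batch 2, falls of 4.16-fold and 2.88-fold. The log2 ratios of −2.06 and −1.53 compare with medians over all genes tested of −0.45 and −0.16, and stood at percentiles 5.20 and 4.34 of those genes. NEAT1 was 1 of the 2 members past 2-fold down among the 4 with enough reads in batch 1, where 26.2% of all genes were past 2-fold down and 4.44% up. It was the only one of 4 in batch 2, against a background of 11.7% down and 3.55% up. In the joint fit of the batches by edgeR (quasi-likelihood test with a batch block and Benjamini-Hochberg adjustment), NEAT1 fell by 1.44 on the log2 scale (SE 0.33, adjusted p = 0.0254, n = 2 against 2), in a fit that called 1.08% of 11614 genes down and 1.21% up. The fit has 1 residual degree of freedom. Without the block the change was −1.36 and the adjusted p 1.00, and no gene passed by edgeR, with 45 down and 17 up at an unadjusted p under 0.05.

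In the other KDs the NEAT1 ratio stayed within 2-fold. It was 0.559 (0.482 to 0.648) in siPAPa, 0.655 (0.557 to 0.771) in the library labelled siPAPg and 0.850 (0.737 to 0.982) in siPAPag. The log2 ratios of −0.84, −0.61 and −0.23 stood at percentiles 26.9, 36.6 and 56.6 of all genes, and the last turned to 0.20 with TMM factors or DESeq2 size factors and to 0.03 with the totals of the tables. These 3 comparisons and that of siStarPAP in batch 1 share 1 siCtrl library, and the difference between KDs was not tested.

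**Figure D1:**
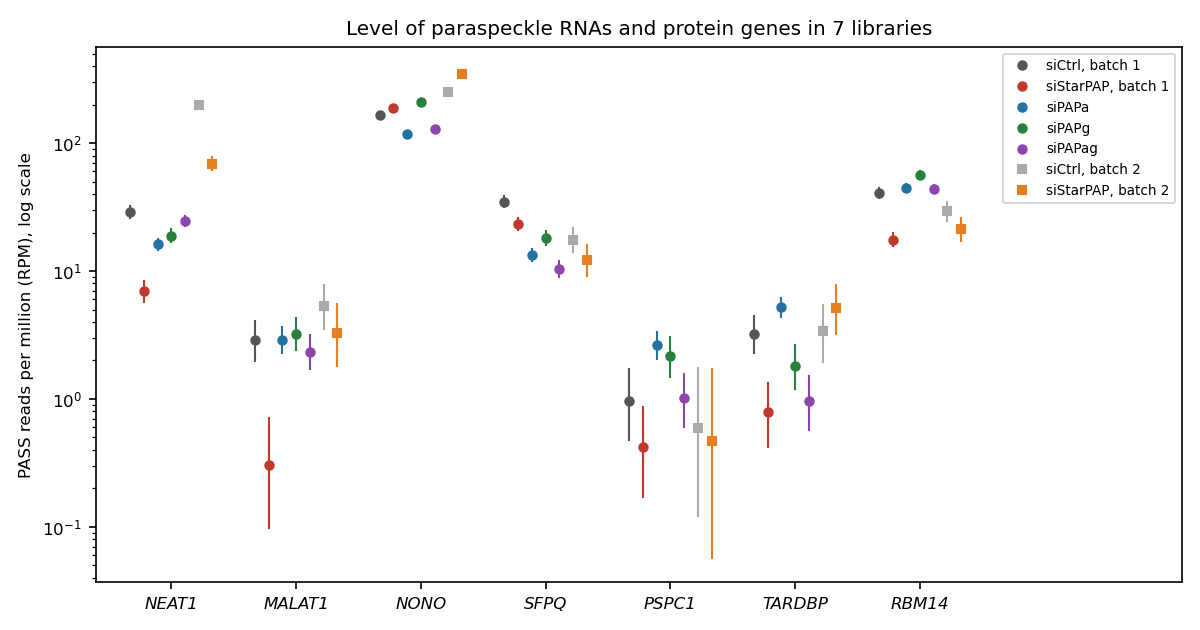
Level of each gene in RPM of PASS reads (log axis) in the 7 libraries, with exact Poisson 95% intervals as vertical lines, circles for batch 1 and siPAPag and squares for batch 2. NEAT1 runs from 6.95 RPM in siStarPAP of batch 1 to 199 RPM in siCtrl of batch 2, a wider range than that of any other member, and MALAT1 is at 0.302 RPM in siStarPAP of batch 1.

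Between the siCtrl libraries, NEAT1 was 6.90 times higher in batch 2 (95% interval 6.09 to 7.84), at percentile 92.9 of 9570 genes, whose median ratio was 0.764. The difference between the control libraries was larger than that between siCtrl and siStarPAP in either batch, and protocol and batch cannot be told apart. SFPQ was lower in batch 2, at a ratio of 0.506 (0.398 to 0.638), and TARDBP was at 1.04 (0.549 to 1.89).

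The order of the members by the level of their tailed ends also differed. In siCtrl of batch 1, NONO (165 RPM) came first and RBM14 (40.7 RPM), SFPQ (34.8 RPM) and NEAT1 (28.9 RPM) followed, and the intervals of neighbours from RBM14 to NEAT1 overlapped. TARDBP (3.24 RPM), MALAT1 (2.89 RPM) and PSPC1 (0.963 RPM) were far below, and TARDBP and MALAT1 did not differ beyond their intervals. In siCtrl of batch 2 NEAT1 stood directly after NONO (252 RPM) and above RBM14 (29.3 RPM) and SFPQ (17.6 RPM), with no overlap of neighbouring intervals.

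Most NEAT1 reads lay at a single PAS, 3753 nt from the start of the gene, where the short isoform ends. Its share of NEAT1 reads was 77.9% in siCtrl of batch 1 (exact 95% interval 73.0 to 82.2) and 76.5% in siStarPAP (67.7 to 83.9), a difference that Fisher's exact test on the reads did not detect (adjusted p = 0.901). The level at this PAS fell with the gene, from 22.5 to 5.32 RPM in batch 1, and in the fit to both batches it fell by 1.501 on the log2 scale (SE 0.36, adjusted p = 0.0121 by edgeR, where 1.18% of 13904 PASs were called down and 1.18% up). Usage of the main PAS rose to 86.9% in siPAPa (adjusted p = 0.00694), 87.9% in the library labelled siPAPg (adjusted p = 0.00919) and 86.0% in siPAPag (adjusted p = 0.0129). Batch 2 had 99.5% at this PAS in siCtrl and 97.3% in siStarPAP (adjusted p = 0.0499).

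The PAS 2248 bases upstream held the next largest share of NEAT1 reads in siCtrl of batch 1, 13.3% (44 reads), whereas in batch 2 it had 1 read of 1006 in siCtrl and 1 of 294 in siStarPAP. It held 5.22% (6 reads, adjusted p = 0.0470) in siStarPAP, 3.95% (16 reads, adjusted p = 4.55e-05) in siPAPa and 3.24% (15 reads, adjusted p = 2.11e-06) in siPAPag, with 8.93% (25 reads, adjusted p = 0.219) in the library labelled siPAPg. Its share was thus lower in each KD of the tables that hold siCtrl of batch 1, and below the test's threshold in 3 of the 4. A minor PAS 394 bases upstream of the main one had no signal in the 40 bases searched. Its share rose from 3.33% to 12.2% of reads in siStarPAP of batch 1 (11 and 14 reads, adjusted p = 0.00686). Its RPM did not rise, at 0.963 in siCtrl and 0.846 in siStarPAP (ratio 0.879, 0.371 to 2.14). It had 0 reads in siPAPa (adjusted p = 0.000877) and in the library labelled siPAPg (adjusted p = 0.00882).

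The most downstream listed PAS of NEAT1, 7004 nt from the start and within the body of the long isoform, had 2 reads in siCtrl (0.606%) and 26 in siPAPa (6.42%, adjusted p = 0.000150). It had 0 reads in siStarPAP of batch 1, in the library labelled siPAPg and in siPAPag, where 0 of 463 reads limits its share to 0.794% (exact 95% interval), so the higher share in siPAPa was not seen in the double KD. A tailed 3′ end past the main PAS was thus read at 1.04 RPM in siPAPa and at 0.175 RPM in siCtrl, a ratio of 5.92 with a counting interval of 1.48 to 51.5. In the table of batch 1 this PAS exceeded 5% of NEAT1 reads, the study's filter, in siPAPa alone. It may thus be listed there through the library in which it is high, so the ratio and adjusted p may overstate the difference.

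**Figure D2:**
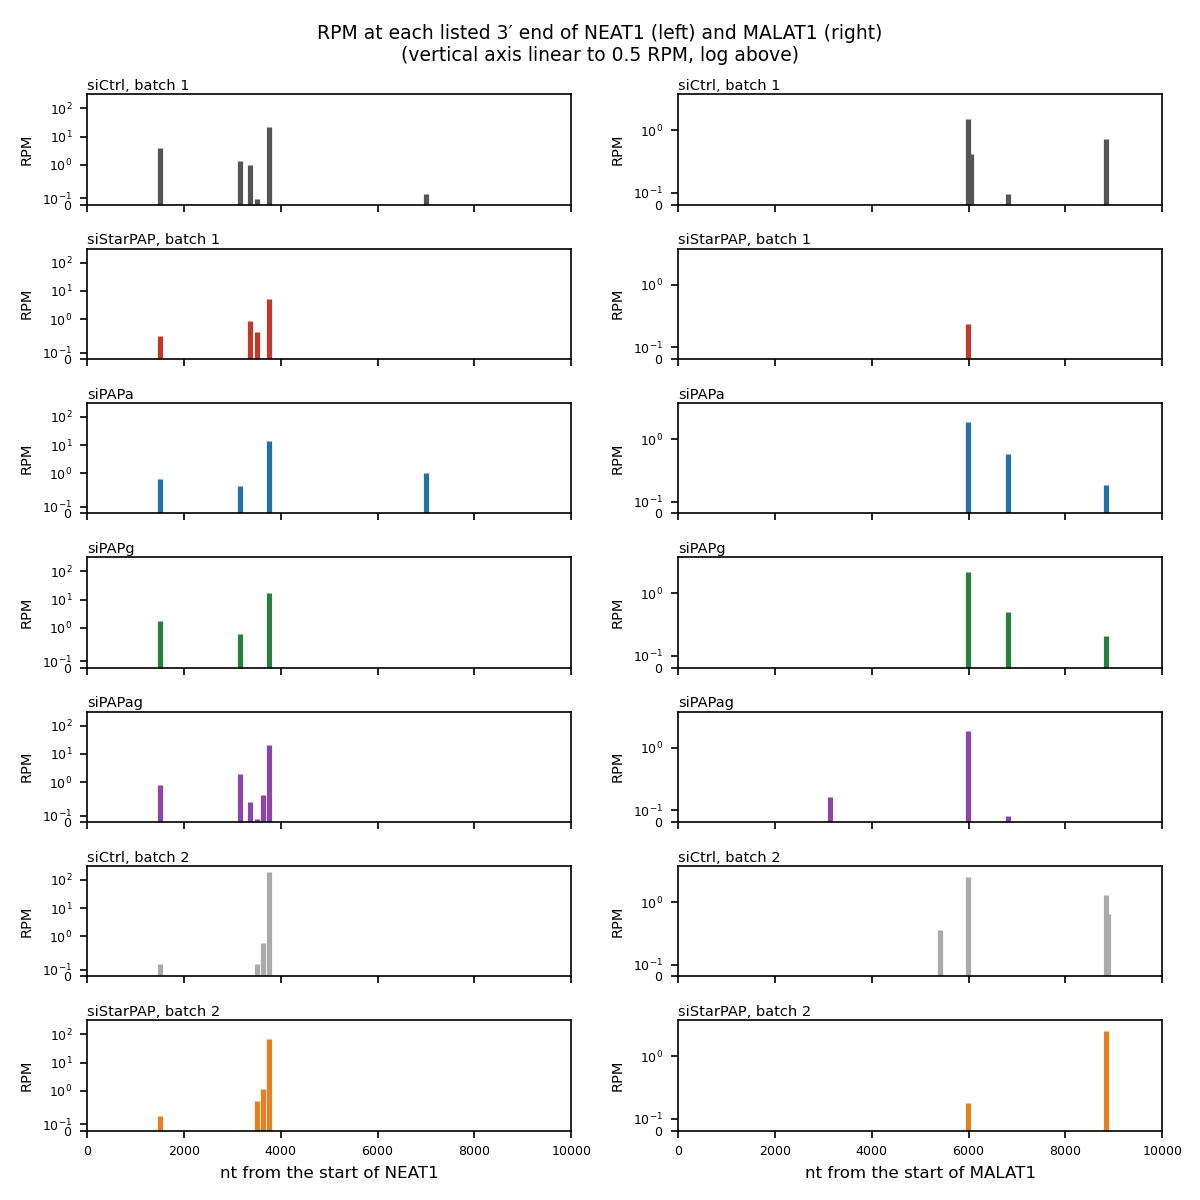
RPM at each listed 3′ end of NEAT1 (left) and MALAT1 (right) against the distance in nt from the start of the gene, 1 row for each library, with the vertical axis linear to 0.5 RPM and logarithmic above. The bar at 3753 nt is the highest of NEAT1 in every library, the bar at 7004 nt is seen in siCtrl of batch 1 and in siPAPa, and the highest MALAT1 bar is at 5991 nt in all libraries but siStarPAP of batch 2, where it is at 8830 nt.

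MALAT1, a nuclear lncRNA of the splicing speckles, was read at its tailed ends alone and at a low level. Its reads numbered 33 in siCtrl (2.89 RPM, 1.99 to 4.06), 5 in siStarPAP (0.302 RPM, 0.0981 to 0.705), 73 in siPAPa (2.91 RPM), 48 in the library labelled siPAPg (3.24 RPM) and 44 in siPAPag (2.34 RPM). In batch 2 they numbered 27 in siCtrl (5.35 RPM, 3.52 to 7.78) and 14 in siStarPAP (3.29 RPM, 1.80 to 5.53). Only siStarPAP of batch 1 stood apart from the other libraries, with no overlap of its interval with theirs.

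The MALAT1 ratio in siStarPAP was 0.105 (0.0319 to 0.270) in batch 1 and 0.616 (0.299 to 1.22) in batch 2, and neither pair had more than 50 reads. The fit to both batches gave a log2 change of −1.52 (SE 0.89, adjusted p = 0.442 by edgeR), which was −2.78 without batch 2 and −0.52 without batch 1, so its size rests on batch 1. The ratio was 1.01 (0.659 to 1.57) in siPAPa, 1.12 (0.706 to 1.81) in the library labelled siPAPg and 0.764 (0.479 to 1.23) in siPAPag, where the log2 ratio of −0.39 turned to 0.04 under TMM and to 0.05 under the size factors of DESeq2. All 3 intervals include a ratio of 1, so no change was detectable at this depth.

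The siCtrl libraries of the batches had 33 and 27 MALAT1 reads, so the shares at its PASs had wide intervals. At the internal PAS these were 39.2% to 74.5% in batch 1 and 35.3% to 74.5% in batch 2. Not all minor PASs were listed for both batches. The internal PAS 5991 nt from the start held 57.6% in siCtrl of batch 1 (19 of 33 reads), all 5 reads in siStarPAP, 74.0% in siPAPa and 77.1% in the library labelled siPAPg. In the table of siPAPag its share was 88.6% (39 reads) against 54.3% in siCtrl (adjusted p = 0.00416), and the distal PAS had 0 reads against 8 (adjusted p = 0.00459). In siStarPAP of batch 2 the distal PAS held 92.9% (13 of 14 reads) against 25.9% in siCtrl (7 of 27 reads, adjusted p = 0.00306), while the internal PAS had 7.14% against 55.6% (adjusted p = 0.0504). In batch 1 the distal PAS had 0 of 5 reads in siStarPAP and 8 of 33 in siCtrl, which the test did not tell apart (adjusted p = 0.687).

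NONO, a DBHS protein that pairs with SFPQ or PSPC1, had the highest level of the members in all 7 libraries. Its reads numbered 1884 in siCtrl (165 RPM, 158 to 172), 3124 in siStarPAP (189 RPM, 182 to 196), 2939 in siPAPa (117 RPM), 3083 in the library labelled siPAPg (208 RPM) and 2433 in siPAPag (129 RPM). In batch 2 they numbered 1274 in siCtrl (252 RPM, 239 to 267) and 1470 in siStarPAP (346 RPM, 328 to 364). In both batches siStarPAP stood above siCtrl, with no overlap of intervals and with a ratio of 1.14 (1.08 to 1.21) and 1.37 (1.27 to 1.48).

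No NONO change passed 2-fold. The log2 ratios in siStarPAP were 0.20 and 0.46, which is 0.64 and 0.62 above the median of all genes, and stood at percentiles 78.9 and 84.4. In the fit to both batches the change was 0.68 (SE 0.33, adjusted p = 0.334 by edgeR), which did not pass. The ratio was 0.711 (0.670 to 0.753) in siPAPa, 1.26 (1.19 to 1.34) in the library labelled siPAPg and 0.785 (0.739 to 0.834) in siPAPag, where the log2 ratio of −0.35 was 0.08 with TMM factors.

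The proximal PAS of NONO lost share in 4 of the 5 comparisons. It held 8.55% of reads in siCtrl (161 reads), 3.30% in siPAPa (97 reads, adjusted p = 3.01e-13), 3.28% in the library labelled siPAPg (101 reads, adjusted p = 2.55e-13) and 5.30% in siPAPag (129 reads, adjusted p = 0.000239). In batch 2 it held 21.5% in siCtrl and 15.1% in siStarPAP (adjusted p = 0.00119), and in siStarPAP of batch 1 it held 7.17%, which did not differ from siCtrl by the test (adjusted p = 0.158). In RPM the proximal PAS was past 2-fold down in siPAPa, the library labelled siPAPg and siPAPag, from 14.1 to 3.87, 6.83 and 6.86. The log2 ratios of −1.05 in the library labelled siPAPg and −1.04 in siPAPag were only just past 2-fold. The medians of all genes there were −0.33 and −0.38, so these calls depend on the scaling. In siStarPAP its RPM hardly moved, from 14.1 to 13.5 in batch 1 and from 54.3 to 52.2 in batch 2, while the distal PAS went from 151 to 175 and from 198 to 294.

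SFPQ, the DBHS protein that also acts in splicing, was the member with the lowest ratios in the KDs of the canonical polymerases. Its reads numbered 398 in siCtrl (34.8 RPM, 31.5 to 38.4), 386 in siStarPAP (23.3 RPM, 21.1 to 25.8), 336 in siPAPa (13.4 RPM, 12.0 to 14.9) and 268 in the library labelled siPAPg (18.1 RPM, 16.0 to 20.4). In the table of siPAPag they numbered 416 in siCtrl and 196 in siPAPag (10.4 RPM, 9.02 to 12.0), and in batch 2 there were 89 in siCtrl (17.6 RPM) and 52 in siStarPAP (12.2 RPM). Every KD library stood below its siCtrl, and only in batch 2 did the intervals overlap.

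The SFPQ ratio was 0.385 (0.332 to 0.446) in siPAPa and 0.286 (0.240 to 0.340) in siPAPag, both past 2-fold, at percentiles 13.0 and 9.11 of all genes. In siPAPa 1 of the 7 tested members was past 2-fold down and 1 up, where 22.1% of all genes were down and 8.5% up. In siPAPag 2 of 6 were down and 0 up, where 26.5% of genes were down and 6.98% up. In the library labelled siPAPg the ratio was 0.520 (0.444 to 0.609), and 0 of 6 members were past 2-fold in either direction, where 20.7% of genes were down and 5.67% up. In siStarPAP it was 0.670 (0.581 to 0.772) and 0.694 (0.483 to 0.988) in the batches, and the fit to both gave −0.19 (SE 0.36, adjusted p = 0.862 by edgeR).

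**Figure D3:**
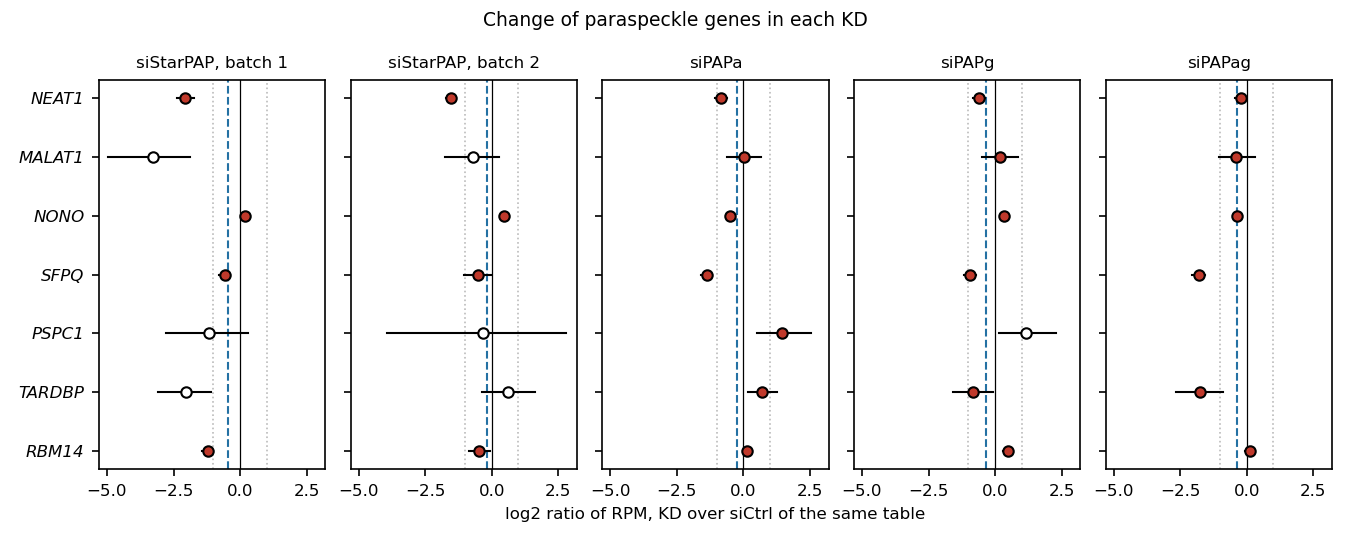
Log2 ratio of RPM in each KD over siCtrl of the same table for the members, with the exact 95% counting interval, filled points for pairs with more than 50 reads and open points for the rest. The dashed line is the median of all genes tested (−0.45, −0.16, −0.26, −0.33 and −0.38 from left to right), dotted lines mark 2-fold, and the gene without a point in siPAPag is PSPC1.

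The reads of SFPQ also shifted between PASs of its 3′UTR. The main PAS held 86.2% of reads in siCtrl (343 reads) and 75.6% in siStarPAP (adjusted p = 0.00132), 47.3% in siPAPa (adjusted p = 2.94e-28) and 53.7% in the library labelled siPAPg (adjusted p = 3.71e-18). In siPAPag it held 40.8%, against 82.5% in siCtrl of the same table (adjusted p = 1.47e-22). The PAS 152 bases downstream went the other way, from 8.04% in siCtrl to 17.1% in siStarPAP (adjusted p = 0.00107), 34.5% in siPAPa (adjusted p = 8.59e-18) and 28.4% in the library labelled siPAPg (adjusted p = 3.97e-10). In siPAPag it held 41.8%, against 7.69% in siCtrl of the same table (adjusted p = 9.90e-21). In siPAPag the downstream PAS thus had as large a share as the main one.

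The lower SFPQ level lay at the main PAS. Its RPM went from 30.02 in siCtrl to 17.6 in siStarPAP, 6.34 in siPAPa, 9.73 in the library labelled siPAPg and 4.26 in siPAPag. The downstream PAS meanwhile stood at 2.80 RPM in siCtrl and at 3.99, 4.62, 5.14 and 4.36 RPM in these KDs, with ratios of 1.42 (0.920 to 2.25), 1.65 (1.11 to 2.52), 1.83 (1.20 to 2.87) and 1.56 (1.02 to 2.42). A PAS 816 bases downstream of the main one also gained share in siPAPa, from 3.77% to 13.7% (adjusted p = 1.53e-05), and in the library labelled siPAPg, to 12.7% (adjusted p = 0.000370). The upstream PAS, which the table of batch 1 does not list, had 18 reads in siCtrl and 4 in siPAPag (ratio 0.135, 0.0333 to 0.410).

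Batch 2 showed another SFPQ pattern. There the upstream PAS, which was listed at 18 of 416 reads (4.33%) in siCtrl of batch 1 in the table of siPAPag, held 57.3% of reads in siCtrl (51 reads) and 26.9% in siStarPAP (14 reads, adjusted p = 0.0158). The main PAS held 32.6% in siCtrl and 50.0% in siStarPAP of batch 2 (adjusted p = 0.260), and its RPM was 5.74 and 6.12. Over the members, 8 of 27 member PASs tested changed usage in siStarPAP of batch 1 (35.2% of all PASs did so by the same test), 16 of 30 in siPAPa (36.6%), 12 of 31 in the library labelled siPAPg (24.2%), 12 of 27 in siPAPag (35.3%) and 5 of 23 in siStarPAP of batch 2 (5.52%). These tests compare the reads of 2 libraries, and PASs of a gene share their total.

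**Figure D4:**
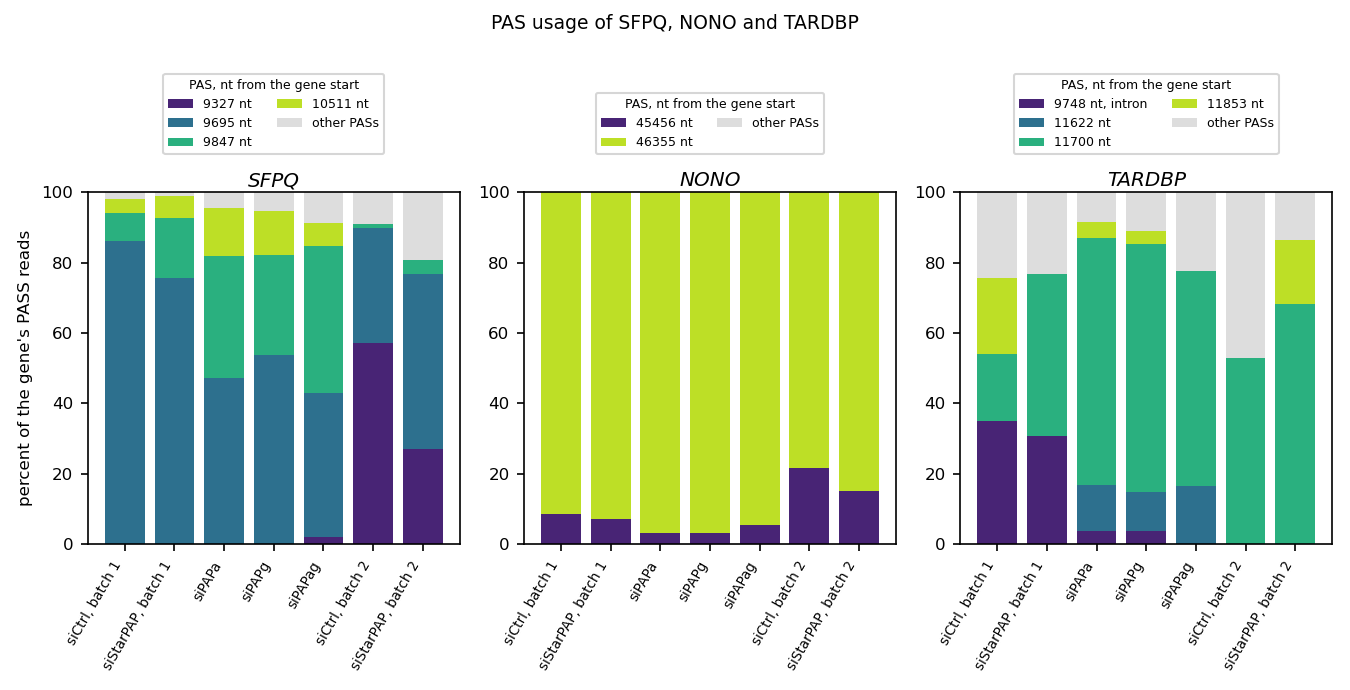
Share of the reads of SFPQ, NONO and TARDBP at their most-read PASs in each library, in percent, with PASs named by their distance in nt from the start of the gene and all further PASs in grey. The SFPQ main PAS (9695 nt) goes from 86.2% in siCtrl of batch 1 to 40.8% in siPAPag as that at 9847 nt grows. The shares of siPAPag include a PAS that the table of batch 1 does not list, and with it siCtrl is at 82.5%. The intronic PAS of TARDBP (9748 nt) goes from 35.1% in siCtrl to 3.82% in siPAPa.

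PSPC1, the DBHS paralog of NONO and SFPQ (chromosome 13, 20248892 to 20357159, minus strand), was near the limit of detection. It had 11 reads in siCtrl (0.963 RPM, 0.481 to 1.72), 7 in siStarPAP (0.423 RPM, 0.170 to 0.871), 66 in siPAPa (2.63 RPM, 2.03 to 3.35) and 32 in the library labelled siPAPg (2.16 RPM, 1.48 to 3.05). In batch 2 there were 3 and 2 reads. The ratio was 2.73 (1.43 to 5.74) in siPAPa, past 2-fold up, and 2.25 (1.10 to 4.94) in the library labelled siPAPg with too few reads to be called.

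No PSPC1 ratio was taken for siPAPag, since that table listed 1 PSPC1 PAS and the 11 siCtrl reads lay at others. At that PAS, 80153 nt from the start of the gene and in its annotated 3′UTR, siCtrl had 0 reads, siStarPAP 7, siPAPa 29, the library labelled siPAPg 12 and siPAPag 19. With 0 reads in siCtrl, the table of siPAPag could list this PAS only through siPAPag, so the direction there was fixed by the listing. No fold change is therefore read from it. The share of PSPC1 reads at this PAS differed from siCtrl by Fisher's exact test in siStarPAP (7 of 7 reads, adjusted p = 0.000301) and in siPAPa (43.9%, adjusted p = 0.0185). With 0 reads in siCtrl a share could only rise, so no gain is drawn from these tests. The table of batch 1 placed all 8 PSPC1 PASs in the 3′-most exon, whereas in the GENCODE annotation 2 of them lie in a 3′UTR and 6 in introns.

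TARDBP, which encodes the RNA-binding protein TDP-43, went in different directions in the KDs. It had 37 reads in siCtrl (3.24 RPM, 2.28 to 4.46), 13 in siStarPAP (0.786 RPM, 0.418 to 1.34), 131 in siPAPa (5.22 RPM, 4.37 to 6.20), 27 in the library labelled siPAPg (1.82 RPM, 1.20 to 2.66) and 18 in siPAPag (0.958 RPM, 0.568 to 1.51). In batch 2 it had 17 in siCtrl (3.37 RPM, 1.96 to 5.39) and 22 in siStarPAP (5.18 RPM, 3.24 to 7.84). The intervals of siStarPAP and siPAPag in the tables with siCtrl of batch 1 lay below that of siCtrl, and the interval of siPAPa overlapped it.

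The TARDBP ratio was 0.243 (0.118 to 0.467) in siStarPAP of batch 1, with 50 reads in the pair and so not tested, and 1.54 (0.780 to 3.08) in batch 2, where 39 reads were too few. It was 1.61 (1.11 to 2.39) in siPAPa, 0.564 (0.330 to 0.951) in the library labelled siPAPg, where the log2 ratio of −0.83 became 0.01 with PASs of the 3′-most exon alone, and 0.296 (0.159 to 0.533) in siPAPag, the latter past 2-fold down. The fit to both batches gave −0.36 (SE 0.84, adjusted p = 0.889 by edgeR), with −1.56 without batch 2 and 0.80 without batch 1. With PASs of the 3′-most exon alone the log2 ratio in siPAPag was −0.87 in place of −1.76 and was no longer past 2-fold, and that in siPAPa was 1.49 in place of 0.69 and was past it.

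The shares of TARDBP reads at the intronic PAS and at the 3′UTR PAS differed between libraries. The intronic PAS, at a position that the gene MASP2 on the opposite strand also spans, held 35.1% in siCtrl (13 of 37 reads), 30.8% in siStarPAP (4 of 13), 3.82% in siPAPa (5 of 131, adjusted p = 1.74e-05), 3.70% in the library labelled siPAPg (1 of 27, adjusted p = 0.0147) and 0 of 18 reads in siPAPag (adjusted p = 0.0182). The 3′UTR PAS held 18.9% in siCtrl (7 reads), 70.2% in siPAPa (92 reads, adjusted p = 4.14e-07), 70.4% in the library labelled siPAPg (19 reads, adjusted p = 0.000864) and 61.1% in siPAPag (11 reads, adjusted p = 0.0176). In siStarPAP it held 46.2% (6 reads, adjusted p = 0.147). In RPM the intronic PAS was at 1.14 in siCtrl, 0.199 in siPAPa, 0.0676 in the library labelled siPAPg and 0 in siPAPag. The 3′UTR PAS went from 0.613 RPM in siCtrl to 3.67 in siPAPa (ratio 5.99, 2.79 to 15.3). It was at 1.28 in the library labelled siPAPg (ratio 2.10, 0.844 to 5.90) and at 0.585 in siPAPag (ratio 0.955, 0.338 to 2.91). Both of these last intervals include 1. Among PASs of the 3′-most exon alone the gain in share passed the test in siPAPa. It no longer did in the library labelled siPAPg or in siPAPag, whose table places this PAS 2 bases downstream. The intronic PAS uses AATATA and the 3′UTR PAS AATAAA, as printed above, and these values rest on few reads.

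RBM14, a coactivator that joins paraspeckles through its prion-like domain (chromosome 11, 66384097 to 66397405), was past 2-fold lower in siStarPAP of batch 1 and in no other comparison. It had 465 reads in siCtrl (40.7 RPM, 37.1 to 44.6), 290 in siStarPAP (17.5 RPM, 15.6 to 19.7), 1128 in siPAPa (45.0 RPM), 834 in the library labelled siPAPg (56.4 RPM) and 827 in siPAPag (44.01 RPM). In batch 2 it had 148 in siCtrl (29.3 RPM, 24.8 to 34.4) and 90 in siStarPAP (21.2 RPM, 17.0 to 26.0). The intervals of siStarPAP and siCtrl did not overlap in batch 1 and overlapped in batch 2.

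The RBM14 ratio in siStarPAP was 0.431 (0.371 to 0.4997) in batch 1, past 2-fold, and 0.722 (0.550 to 0.945) in batch 2. With TMM factors the log2 ratio of −1.22 in batch 1 was −0.74 and within 2-fold, and the fit to both batches gave −0.50 (SE 0.35, adjusted p = 0.543 by edgeR). It was 1.10 (0.991 to 1.23) in siPAPa, 1.39 (1.24 to 1.56) in the library labelled siPAPg and 1.08 (0.964 to 1.21) in siPAPag. All RBM14 reads lay at 1 PAS in batch 1. In batch 2 a further PAS in the span of the readthrough gene RBM14-RBM4, 10512 bases downstream, held 16.2% in siCtrl and 10.0% in siStarPAP (adjusted p = 0.564).

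Counted by PAS, 2 of 6 member PASs with more than 50 reads were past 2-fold down in siStarPAP of batch 1 (27.7% of all PASs were down and 7.48% up), the main PAS of NEAT1 and that of RBM14. In batch 2 it was 2 of 6 as well (12.4% down, 4.9% up), the main PAS of NEAT1 and the upstream PAS of SFPQ. In siPAPa 3 of 10 were down and 1 up (24% down, 14.1% up). Both in the library labelled siPAPg (23.3% down, 8.34% up) and in siPAPag (28.2% down, 10.9% up) 3 of 8 were down and 0 up. In each of these 3 KDs the PASs past 2-fold down were the upstream PAS of NEAT1, the proximal PAS of NONO and the main PAS of SFPQ. That of the 3′UTR of TARDBP was up in siPAPa. The KDs share siCtrl, at which these 3 PASs have the same reads. The proximal PAS of NONO was only just past 2-fold in the library labelled siPAPg and in siPAPag, at −1.05 and −1.04.

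The balance of falls and rises over all genes depended on the scaling. With the totals of the tables the median log2 ratio was −0.06 in the library labelled siPAPg and −0.11 in siPAPag, in place of −0.33 and −0.38. With TMM factors, which set the typical gene to no change, 1295 genes were past 2-fold down and 1173 up in siStarPAP of batch 1 in place of 2637 and 448, and 589 and 426 in batch 2 in place of 831 and 253. In siPAPa they were 1492 and 1617 in place of 2388 and 919, in the library labelled siPAPg 1118 and 1151 in place of 2105 and 576, and in siPAPag 1502 and 1478 in place of 2656 and 700. NEAT1 stayed past 2-fold down in siStarPAP of both batches with TMM factors, at −1.58 and −1.35, and SFPQ in siPAPa and siPAPag, at −1.04 and −1.37.

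Among 35 further paraspeckle protein genes, 34 were listed in the table of batch 1. In siStarPAP of batch 1, 6 of 28 tested were past 2-fold down and 0 up, where 26.2% of all genes were down and 4.44% up, and the median log2 ratio of −0.45 equalled that of all genes. In batch 2, 3 of 25 were down and 0 up (median −0.30), where 11.7% of all genes were down and 3.55% up. TAF15, an RNA-binding protein, had 450 reads in siCtrl and 52 in siStarPAP of batch 1 (log2 ratio −3.65) and 199 and 60 in batch 2 (−1.48). In the fit to both batches it fell by 2.22 on the log2 scale (SE 0.44, adjusted p = 0.0109 by edgeR). CIRBP, a cold-inducible RNA-binding protein, fell by 1.29 (SE 0.33, adjusted p = 0.0432 by edgeR), with 3301 and 1224 reads in batch 1 and 1162 and 394 in batch 2. BCL11A, a zinc finger transcription factor, had log2 ratios of −3.34 and −1.09 in the batches and did not pass the fit (adjusted p = 0.194 by edgeR). The others among the most changed in batch 1 were SRSF10, a splicing regulator (−2.05), and FAM98A (−1.67).

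CPSF6 and NUDT21, the subunits of cleavage factor I that favour the short NEAT1 isoform, stood at −0.68 and −0.55 in siStarPAP of batch 1, within 2-fold. In the fit to both batches they changed by −0.05 (adjusted p = 0.967 by edgeR) and −0.14 (adjusted p = 0.890). HNRNPK, which favours the long isoform, stood at −0.06 and −0.03 in the batches. In siPAPa CPSF6 was at 0.03, NUDT21 at −0.44 and HNRNPK at 0.91, and with the PASS totals none of the 3 was past 2-fold in any KD, although HNRNPK in siPAPa stood 1.17 above the median log2 ratio of all genes.

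In the KDs of the canonical polymerases the further paraspeckle genes went both ways. In siPAPa 3 of 30 were past 2-fold down and 7 up (median 0.08), where 22.1% of all genes were down and 8.5% up (median −0.26), among them BCL11A (−3.16), RUNX3 (−2.02) and CIRBP (−1.97) down and HNRNPA1 (1.89) and HNRNPF (1.65), both splicing regulators, up. In siPAPag 4 of 29 were down and 4 up (median −0.03), where 26.5% of all genes were down and 6.98% up (median −0.38), with CIRBP at −2.28, FIGN at 2.19, BCL11A at −1.84, HNRNPR at 1.24 and HNRNPH3 at −1.22. In the library labelled siPAPg 1 of 28 was down, HNRNPH3 (−1.19), and 2 up, EWSR1 (1.11) and RBMX (1.04), with a median of −0.07, where 20.7% of all genes were down and 5.67% up with a median of −0.33. CIRBP had 3301 reads in siCtrl, 1850 in siPAPa and 1115 in siPAPag.

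Among 16 other lncRNAs, 10 were listed in the table of batch 1. Of those tested, 0 of 7 were past 2-fold in either direction in siStarPAP of batch 1 (26.2% of all genes down, 4.44% up) and 0 of 6 in batch 2 (11.7% down, 3.55% up). Their log2 ratios ranged from −0.67 to 0.06 and from −0.57 to 0.40. In siPAPa 1 of 7 was up, GAS5, a host of small nucleolar RNAs (262 and 1233 reads, log2 ratio 1.10), where 8.5% of all genes were up and 22.1% down. In the library labelled siPAPg 1 of 7 was down, SNHG8 (−1.20), where 20.7% of all genes were down and 5.67% up, and in siPAPag 0 of 7 were past 2-fold, where 26.5% were down and 6.98% up. Of the listed lncRNAs with too few reads to test, KCNQ1OT1 went from 15 to 0 reads in siStarPAP of batch 1, MIAT from 17 to 9 and FTX from 2 to 5. In siPAPa these had 0, 0 and 41 reads, and in the library labelled siPAPg 6, 0 and 15. GAS5, SNHG8, KCNQ1OT1, MIAT and FTX are named here after their values were seen. By their log2 ratios in the 5 comparisons, the genes nearest to NEAT1 among 3750 with at least 50 reads in every library were FDXR (root mean square difference 0.22), STMN1 (0.31), SEMA6C (0.31), HEATR6 (0.32) and LAMA5 (0.37), where the median over all was 1.18. For MALAT1, which itself had fewer reads, they were PRSS23 (0.44), NDUFB2 (0.52), STMN1 (0.61), WDR6 (0.65) and MZF1 (0.65), with a median over all of 1.48.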

How the data were processed

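PolyA+ ends of HEK293 RNA were read by 3′READS (batch 1) or 3′READS+ (batch 2). Per the study's methods and the submitters' processing notes, the authors aligned reads to hg19 with Bowtie2, kept those with mapping quality over 10 and at least 2 untemplated Ts, and joined PASs within 24 nt. The deposited values are raw counts of PASS reads per PAS and library. The siCtrl of batch 1 had identical counts at 32360 of 32475 PASs shared by its 2 tables and was treated as 1 library.

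Reads on the gene's strand were summed per gene and divided by the study's PASS read totals to give RPM. The listed reads were 70.5% of that total in siCtrl of batch 1, 67.2% in siStarPAP and 64.5% in siPAPa. They were 58.6% in the library labelled siPAPg, 57.9% in siPAPag, and 54.5% and 55.2% in siCtrl and siStarPAP of batch 2. A lower listed part lowers the ratios to siCtrl. Gene and PAS changes are log2 ratios against siCtrl of the same table, called past 2-fold with more than 50 reads in the pair. PAS usage was tested by the two-sided Fisher's exact test with Benjamini-Hochberg adjustment over all PASs (threshold 0.05), which compares libraries and not conditions. For siStarPAP, edgeR 4.0.16 (R 4.3.3; TMM, filterByExpr) fitted both batches with the replicate number as a block. The labels give the batch, and deviations of same-numbered libraries correlated at r = 0.858 over 11614 genes. Nothing states that these libraries are separate cultures, so p-values measure the spread between these libraries, which may be technical. DESeq2 1.42.0 was an alternative. The scripts were tested on simulated data, and intervals were computed with scipy 1.17.1 at 95%.

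Genes named are the 7 members, the 3 polymerase genes, CPSF6, NUDT21 and HNRNPK (a further gene of the rule is not reported here), at most 5 further paraspeckle genes per comparison with the largest log2 ratio past 2-fold, and the 5 nearest to NEAT1 and to MALAT1. The members and lists were chosen with earlier results of these data known. Sequences are from the GRCh37 reference. The methods state a filter of more than 5% usage in at least 1 sample. In the deposited tables, 1.82% to 17.9% of PASs were at or under 5% in every library of the same table. A PAS may have passed in a library of another table, so these values cannot show whether the filter was applied.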

Additional observations from a re-analysis of the deposited data

Results flagged for a closer look

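TARDBP stood out because its siStarPAP libraries went opposite ways in the batches. The log2 ratio to siCtrl was −2.04 in batch 1 (13 against 37 reads) and 0.62 in batch 2 (22 against 17 reads). The difference between the batches was not tested, and neither pair had more than 50 reads.

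Reads upstream of SFPQ on the opposite strand were used in no comparison. At the position 35659233 of chromosome 1, on the plus strand, siStarPAP of batch 1 had 1.99 RPM (33 reads) and siCtrl 0.438 RPM (5 reads). siPAPa had 0.0797 RPM (2 reads), the library labelled siPAPg 0.338 RPM (5 reads) and siPAPag 0.372 RPM (7 reads), so siStarPAP was the highest of these 5 libraries.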

How the results depend on the processing

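Each comparison of KDs rests on 1 library a side, the fit to both batches on 1 residual degree of freedom, and MALAT1, PSPC1 and TARDBP on few reads. Values are given as down and up, in the order siStarPAP of batch 1, siPAPa, the library labelled siPAPg, siPAPag and siStarPAP of batch 2 unless named. The cause of the differences was not tested.

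With TMM factors the genes past 2-fold were 1295 and 1173, 1492 and 1617, 1118 and 1151, 1502 and 1478, and up in batch 2 426. With DESeq2 size factors they were 1305 and 1164, 1548 and 1533, 1173 and 1096, 1496 and 1497, and up in batch 2 447. With table totals they were 1350 and 938 in the library labelled siPAPg and up in siPAPag 1117. With no filter on low reads they were up 876 in siStarPAP of batch 1, down 3697 in siPAPa, 3478 and 978 in the library labelled siPAPg, up 1104 in siPAPag, and 2319 and 1046 in batch 2. Past 1.5-fold they were 4358 and 1027, 3945 and 1863, 3834 and 1240, 4164 and 1434, and 1873 and 810.

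Of the members, 1 was down in siStarPAP of batch 1 with TMM factors or DESeq2 size factors and 5 with no filter. In siPAPa 2 were up with TMM factors, past 1.5-fold or with PASs of the 3′-most exon alone, and 2 were down past 1.5-fold. In the library labelled siPAPg 1 was up with no filter and 3 were down past 1.5-fold, and in siPAPag 1 was down with PASs of the 3′-most exon alone.

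Of the member PASs, TMM factors left 1 down in siStarPAP of batch 1, 2 up in siPAPa, 1 down and 1 up in the library labelled siPAPg (also with table totals) and 1 up in siPAPag. No filter gave 6 and 1, 8 and 4, 8 and 2, 5 and 1, and 4 and 3. Past 1.5-fold 2 were up in siPAPa, 2 in the library labelled siPAPg and 1 in siPAPag. With a change of at least 10 percentage points, usage changed at 3, 9 and 7 member PASs in the first 3 comparisons, at 2 in batch 2, and at 9078 of all PASs in siPAPag. With PASs of the 3′-most exon alone it changed at 3 in batch 2.

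Without the replicate block the fit to both batches called 0 genes down and 0 up and 0 PASs down and 0 up, where edgeR had 37 PASs down and 25 up at an unadjusted p under 0.05. NEAT1 was then −1.36 and its main PAS −1.40, both with an adjusted p of 1.00, and TARDBP (0.13) and the distal PAS of MALAT1 (0.80) turned positive. With no filter on low counts 249 genes were down and 224 up. Leaving out a batch gave NEAT1 −1.58 to −1.35 and its main PAS −1.64 to −1.35, and DESeq2 gave NEAT1 −1.40 (adjusted p = 0.00498).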
